A study of Mus musculus with 9 samples.

Results

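The interferon-stimulated genes described here are *Ifit1*, *Ifit3*, *Isg15*, *Irf7*, *Oas1a*, *Oasl2*, *Usp18*, *Rsad2* and *Bst2*, 9 of the 51912 genes listed in a liver RNA-sequencing table. They were taken by gene symbol, as a readout of nucleic acid sensing in mice that had received an antisense oligonucleotide (ASO). Livers came from fasted mice of the C57Bl/6 background that carried *Apoe*-/-*Ndst1* f/f*Alb-Cre*+, so all 9 lacked apoE and, through a Cre driven by the albumin promoter, the heparan sulfate-modifying enzyme NDST1 in hepatocytes. An ASO against *Apoc3* was given to 5 mice (apoC-III group) and a control ASO to 4 (control group), both at 50 mg/kg/week for 8 weeks. Neither the age of these mice nor the diet of the sequenced animals was given in the sources used here. No liver of a mouse without any ASO was analysed here, so every value below is set against another ASO and not against an untreated level.

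Cells detect foreign or misplaced RNA and DNA with Toll-like receptors, RIG-I-like receptors and the cGAS-STING pathway, and answer by making type I interferons. Interferon bound to its receptor on the same or a neighboring cell signals through JAK1 and TYK2 to a complex that holds STAT2 and IRF9, which binds the interferon-stimulated response element in the promoters of its target genes. In the liver both hepatocytes and resident macrophages can mount this response, and single-stranded oligonucleotides are themselves nucleic acids that some of these sensors can recognize. The 9 genes are commonly read as targets of that pathway. *Irf7* encodes the transcription factor that amplifies interferon production, *Isg15* a ubiquitin-like modifier, and *Usp18* the protease that removes ISG15 and dampens receptor signaling. The other 6 encode antiviral effectors. The IFIT proteins (*Ifit1*, *Ifit3*) act on viral RNA, the oligoadenylate synthetase family (*Oas1a*, *Oasl2*) links double-stranded RNA to RNA decay, viperin (*Rsad2*) makes a chain-terminating nucleotide, and tetherin (*Bst2*) holds budding virions at the cell surface.

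The promoters that carry the response element are shown first, because most members with a promoter entry hold it. The members were chosen as interferon-stimulated genes, so their share of matches is a description and not independent of that choice. Windows from 250 bases before to 50 bases after the RefSeq transcription start (GRCm38.p6) were given for 8 of the 9 members. *Usp18* had no entry. The core of the element was searched as GAAANNGAAA on both strands, and 6 of the 8 windows held at least 1 match, against 3.44% of all 32851 promoter windows of the same 300-base length. Among genes tested for expression that had a window, the share was 4.04% (375 of 9276). The windows below run 5′ to 3′ on the gene's strand, and capitals mark the matches, which overlap each other in *Isg15*, *Oas1a* and *Bst2*. *Ifit1* lies at chr19:34640765-34640833 (plus strand), *Ifit3* at chr19:34583353-34583436 (plus strand), *Isg15* at chr4:156200855-156200916 (minus strand), *Oas1a* at chr5:120907526-120907565 (minus strand), *Rsad2* at chr12:26456543-26456592 (minus strand) and *Bst2* at chr8:71537567-71537622 (minus strand).
Ifit1: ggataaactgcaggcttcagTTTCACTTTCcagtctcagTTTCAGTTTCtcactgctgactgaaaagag
Ifit3: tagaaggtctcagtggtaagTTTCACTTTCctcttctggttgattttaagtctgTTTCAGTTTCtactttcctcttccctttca
Isg15: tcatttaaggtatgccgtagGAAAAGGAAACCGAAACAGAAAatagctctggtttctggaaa
Oas1a: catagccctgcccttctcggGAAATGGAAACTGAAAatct
Rsad2: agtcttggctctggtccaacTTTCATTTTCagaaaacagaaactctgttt
Bst2: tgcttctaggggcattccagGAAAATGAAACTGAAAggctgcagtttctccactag

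*Isg15* had 3 overlapping matches on its own strand, between 78 and 57 bases before the start. *Ifit1* and *Ifit3* each had 2 separate matches on the other strand, those of *Ifit1* at 104 to 95 and at 85 to 76 bases before the start. The match closest to a start was that of *Oas1a*, which ended 5 bases before it. *Irf7* and *Oasl2* held no match in this window. A second element, TTCNNNGAA, which is known from promoters of genes induced by interferon-gamma and reads the same on either strand, was found in *Oas1a* and *Bst2* and in 8.30% of all promoter windows. In *Bst2* a match to this element and one to the response element overlapped by 3 bases. The same response element stood in 22 of 54 promoters (40.7%) of other type I interferon-stimulated genes and in 15 of 31 (48.4%) of genes known for induction by interferon-gamma. A match is a run of letters and was not tested as a binding site.

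**Figure D1:**
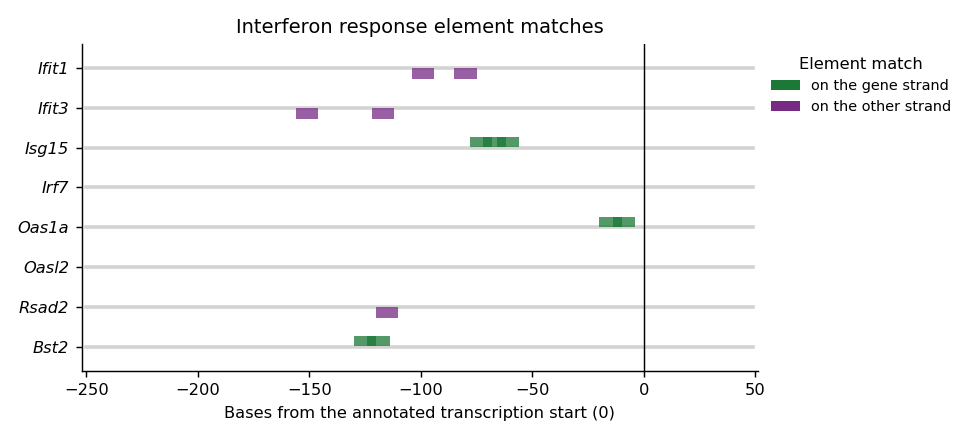
Matches to the interferon-stimulated response element (boxes) along the promoter windows of the 8 members with an entry, in bases from the annotated transcription start at 0. Green boxes above the line lie on the gene's strand and purple boxes below it on the other strand. Of the 8 windows, 6 hold a match, all upstream of the start, and those of *Irf7* and *Oasl2* hold none.

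The expression values were deposited as TPM (transcripts per 1000000), a length-corrected share of each library that keeps no read depth, so no counting error can be given for a single liver. Copies of the 7SL RNA gene took 64.0% to 83.6% of the TPM, and all nuclear protein-coding genes together held 3.04% to 5.31% in the apoC-III group and 1.94% to 8.64% in the control group. Nuclear protein-coding genes were therefore rescaled to a total of 1000000 in each liver and divided by median-of-ratios factors, which bring the typical gene to a common level. Values on this scale are called rescaled TPM. The factors ran from 0.930 to 1.44 in 8 livers and stood at 0.496 in control ASO replicate 4, which therefore stood apart, also as deposited (0.217 against 0.638 to 1.81). Differential expression was tested on log2(rescaled TPM + 1) with limma's trend method over the 11968 genes with a mean of at least 1, and p-values were adjusted over all of them (Benjamini-Hochberg). Genes that changed over 1.5-fold with an adjusted p under 0.05 were called. *Apoc3*, the target of the ASO, checked the labels. Its mean was 87.4% lower on rescaled TPM in the apoC-III group (n = 5) than in the control group (n = 4), and 86.5% lower as deposited, each with p = 0.0159 from a two-sided exact permutation test, the smallest p that 5 livers against 4 allow. The hepatocyte marker *Alb* led its list in every group, with summed hepatocyte markers at 24046 to 54738 rescaled TPM in the apoC-III group and 33382 to 45571 in the control group.

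All 9 interferon-stimulated genes had a value above 0 in every liver, down to 0.00808 TPM as deposited (*Oas1a* in control ASO replicate 4). All 9 had a higher mean in the apoC-III group, but none passed limma's test after adjustment. *Rsad2* stood 1.29 higher on the log2 scale and *Irf7*, *Ifit1*, *Oas1a*, *Isg15* and *Usp18* between 0.69 and 0.85 higher, all 6 with an unadjusted p under 0.05. With 1 liver left out in turn, 4 to 6 members had such a p, beside 2.05% to 3.70% of all genes. For *Bst2*, *Ifit3* and *Oasl2* the 95% interval of the log2 fold change included 0. Across all genes tested, 3% were higher with an unadjusted p under 0.05 and 2.57% were lower. In this fit no gene at all was called higher (0% of 11968), and 2 genes, *Apoc3* and *Anpep*, were called lower (0.0167%). The paper's own test, run on read counts, reported genes both higher and lower at the same thresholds. On TPM as deposited, limma called 5 genes higher and 6 lower among 4936 tested. The absence of calls here therefore does not show that no gene rose. The median log2 fold change of the members was 0.74, beside −0.0013 over all genes tested, of which 49.9% were above 0. In bulk liver, a larger number of cells of a type and more RNA per cell cannot be told apart.

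**Figure D2:**
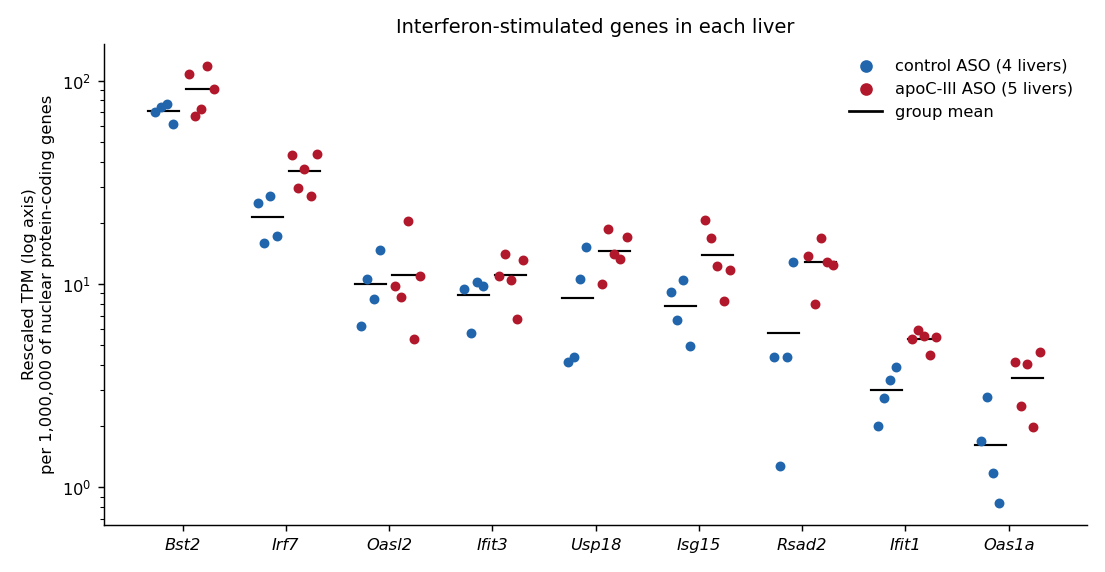
Rescaled TPM (log axis) of the 9 interferon-stimulated genes in each of the 4 livers given control ASO (blue) and the 5 given apoC-III ASO (red), with black bars at the group means. *Ifit1* and *Irf7* are the members whose groups do not overlap, *Irf7* by a margin of 27.06 against 27.00.

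Among the members that act on signaling, *Irf7* (ENSMUSG00000025498, chromosome 7 of GRCm38, 141262706 to 141266481, minus strand) was the most abundant. Its rescaled TPM was 43.0, 29.6, 36.9, 27.1 and 43.8 in apoC-III ASO replicates 1 to 5 and 25.1, 15.95, 27.0 and 17.2 in control ASO replicates 1 to 4. Every liver of the apoC-III group was above every control liver, although the lowest apoC-III and the highest control liver nearly touched. The means were 36.1 ± 7.61 (SD, n = 5) and 21.3 ± 5.54 (SD, n = 4). The log2 fold change was 0.74 (SE 0.24, 95% interval 0.21 to 1.27), with an unadjusted p of 0.00989 and an adjusted p of 0.860 from limma. The exact permutation test of *Irf7* alone gave p = 0.0159, the smallest this design allows. *Irf7* shares 45 bases at its end with *Phrf1* on the opposite strand.

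*Isg15* (ENSMUSG00000035692, chromosome 4, 156199424 to 156200818, minus strand) was measured at 20.6, 16.9, 12.3, 8.22 and 11.7 rescaled TPM in the apoC-III group and at 9.13, 6.67, 10.4 and 4.99 in the control group. Replicates 1 and 2 of the apoC-III group were the highest, and replicate 4 of that group fell within the control range. The log2 fold change was 0.75 (SE 0.29, limma adjusted p = 0.873). *Usp18* (ENSMUSG00000030107, chromosome 6, 121245906 to 121270917, plus strand) was at 10.04, 18.7, 14.01, 13.2 and 17.1 in the apoC-III group and at 4.15, 4.37, 10.6 and 15.1 in the control group. The control group was split, with replicates 1 and 2 below all apoC-III livers and replicate 4 above 3 of them. Its log2 fold change was 0.85 (SE 0.35, limma adjusted p = 0.876), and the exact permutation p was 0.111. A long noncoding RNA gene on the other strand, *Gm44148*, overlaps *Usp18*, and 3.48% of the 31-base words of *Usp18* transcripts also occur in it.

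Among the effectors, *Rsad2* (ENSMUSG00000020641, chromosome 12, 26442746 to 26456452, minus strand) had the widest difference. Its rescaled TPM was 13.7, 8.02, 16.9, 12.9 and 12.5 in the apoC-III group and 4.38, 1.27, 4.38 and 12.9 in the control group. Replicate 4 of the control group lay inside the apoC-III range, and the other control livers lay below all apoC-III livers. The group means were 12.8 ± 3.19 (SD, n = 5) and 5.72 ± 4.98 (SD, n = 4). The log2 fold change was 1.29 (SE 0.43, 95% interval 0.35 to 2.23), with an unadjusted p of 0.0112 and an adjusted p of 0.860 from limma. Without control ASO replicate 4 it was 1.74 (limma adjusted p = 0.484), and leaving out the other livers in turn gave values down to 0.87.

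*Ifit1* (ENSMUSG00000034459, chromosome 19, 34640871 to 34650009, plus strand) was the most even of the members within the apoC-III group. It was at 5.36, 5.94, 5.53, 4.50 and 5.51 rescaled TPM in the apoC-III group and at 2.01, 2.74, 3.37 and 3.89 in the control group. The groups did not overlap, with means of 5.37 ± 0.528 (SD, n = 5) and 3.004 ± 0.813 (SD, n = 4). Its log2 fold change was 0.69 (SE 0.22, 95% interval 0.20 to 1.18), with an unadjusted p of 0.00967 and an adjusted p of 0.860 from limma, and the exact permutation p was 0.0159. *Ifit3* (ENSMUSG00000074896, chromosome 19, 34583531 to 34588731, plus strand), its neighbor, was at 10.99, 13.996, 10.4, 6.76 and 13.2 in the apoC-III group and at 9.46, 5.77, 10.3 and 9.80 in the control group. The *Ifit3* groups overlapped through replicate 4 of the apoC-III group, and the log2 fold change was 0.29 (SE 0.26, limma adjusted p = 0.935). Of the 31-base words in *Ifit3* transcripts 61.8% also occur in its near copy *Ifit3b*, so reads could be split between them. Summed, *Ifit3* and *Ifit3b* were at 13.5 ± 3.501 (SD, n = 5) against 10.7 ± 3.48 (SD, n = 4), which did not differ beyond the spread (exact permutation p = 0.286).

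*Oas1a* (ENSMUSG00000052776, chromosome 5, 120896256 to 120907521, minus strand) had the lowest levels. It was at 4.15, 2.51, 4.03, 1.98 and 4.63 rescaled TPM in the apoC-III group and at 1.70, 2.79, 1.17 and 0.838 in the control group. Replicate 2 of the control group lay above replicates 2 and 4 of the apoC-III group. The log2 fold change of *Oas1a* was 0.78 (SE 0.30, limma adjusted p = 0.873). *Oas1a* shares 68.7% of its 31-base words with *Oas1g*, a copy beside it, so the sum of both was taken too. It was 9.62, 8.61, 12.4, 5.09 and 12.1 in the apoC-III group and 4.85, 4.88, 3.69 and 2.77 in the control group. On that sum 5 of 5 apoC-III livers were above all control livers, and the ratio of the means was 2.36. The exact permutation p was 0.0159, the smallest this design allows and not adjusted. Over all genes tested, 0.919% were higher without overlap. Taken alone, *Oas1a* had 3 and *Oas1g* had 4 apoC-III livers above all control livers (exact permutation p = 0.0476 and 0.0317). *Oasl2* (ENSMUSG00000029561, chromosome 5, 114896936 to 114912234, plus strand) was at 9.75, 8.64, 20.5, 5.35 and 10.9 in the apoC-III group and at 6.19, 10.6, 8.45 and 14.8 in the control group. One apoC-III liver, replicate 3, carried the higher mean of *Oasl2*. The log2 fold change was 0.07 (95% interval −0.69 to 0.83), and it turned to −0.17 without that liver and to −0.11 without control ASO replicate 1.

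*Bst2* (ENSMUSG00000046718, chromosome 8, 71534255 to 71537456, minus strand) was the most abundant member, higher than 90.2% of tested genes. It was at 108.0, 66.8, 72.9, 118.3 and 91.1 rescaled TPM in the apoC-III group and at 69.8, 74.6, 76.4 and 61.4 in the control group. Replicates 1, 4 and 5 of the apoC-III group were above all control livers and the other two lay within the control range. The log2 fold change was 0.34 (SE 0.22, 95% interval −0.14 to 0.82, limma adjusted p = 0.901).

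**Figure D3:**
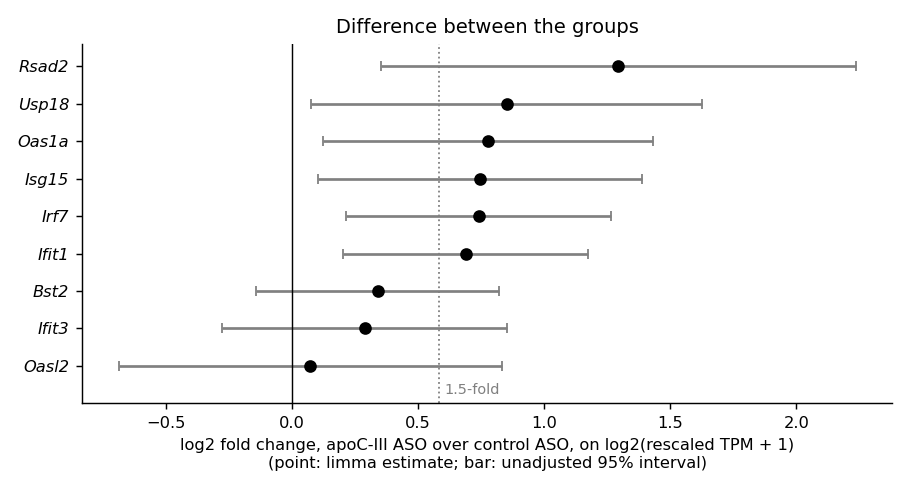
Log2 fold change (apoC-III ASO over control ASO) of each member on log2(rescaled TPM + 1), as the limma estimate (point) with its unadjusted 95% interval (bar). All 9 points are above 0, from 0.07 (*Oasl2*) to 1.29 (*Rsad2*), and the intervals of 6 members exclude 0, although the lowest adjusted p was 0.860 (limma).

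Levels can be compared between genes because TPM is corrected for length. In the control group the order of mean rescaled TPM was *Bst2* (70.6), *Irf7* (21.3), *Oasl2* (9.998), *Ifit3* (8.83), *Usp18* (8.56), *Isg15* (7.80), *Rsad2* (5.72), *Ifit1* (3.004) and *Oas1a* (1.62). Only *Bst2* and *Irf7* stood clear of the next gene in that order, in both groups. From *Oasl2* down, neighbors overlapped between livers. In the apoC-III group *Oasl2* stood behind *Usp18*, *Isg15*, *Rsad2* and *Ifit3*, and *Ifit1* and *Oas1a* were again the lowest. On the deposited scale these were low values, and 2 members, *Bst2* and *Irf7*, had a mean TPM of at least 1.

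The groups of 2 of 9 members did not overlap (*Ifit1*, *Irf7*, both higher), beside 0.919% of all genes tested that were higher without overlap. Without apoC-III ASO replicate 4 the count was 4 members, beside 2.04% of all genes. It was 3 without control ASO replicate 2 (1.90%) and 3 without control ASO replicate 4 (1.94%). Leaving out any other single liver kept the count at 2, while the share over all genes was 1.24% to 2.02%. On TPM as deposited, with a pseudocount of 0.1 and a minimum mean of 0.1, all 9 members were again above 0, but so were 74.6% of 12725 genes, and the medians were 0.72 for the members and 0.20 for all genes. On that scale 1 member, *Rsad2*, had an unadjusted p under 0.05 and the only groups without overlap. Of all genes, 1.12% were higher with such a p and 0.306% were higher without overlap. With median-of-ratios factors on the same scale, 6 members had an unadjusted p under 0.05 and 1 had groups without overlap, beside 3% and 1.02% of 12338 genes. As deposited, *Rsad2* was at 0.987, 0.530, 0.799, 0.667 and 0.360 TPM in the apoC-III group and at 0.352, 0.0802, 0.231 and 0.124 TPM in the control group.

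Single livers differed in how high the members stood. The mean z-score of the 9 members, each gene centered and scaled over the 9 livers, was 0.77, 0.40, 0.68, −0.075 and 0.77 in apoC-III ASO replicates 1 to 5 and −0.81, −0.996, −0.34 and −0.40 in control ASO replicates 1 to 4. Every liver of the apoC-III group was above every control liver on this mean, with replicate 4 the lowest of the apoC-III group. As a geometric mean this was 10.4 to 14.95 rescaled TPM in the apoC-III group against 6.498 to 9.23 in the control group. The 65 other tested type I interferon-stimulated genes, described further below, were averaged in the same way. Their mean z-score was 0.32, 0.31, 0.63, −0.39 and 0.32 in apoC-III ASO replicates 1 to 5. It was −0.40, −0.49, 0.0093 and −0.31 in control ASO replicates 1 to 4. On that mean the groups overlapped, with apoC-III ASO replicate 4 below control ASO replicates 3 and 4. The members did not move as a block from liver to liver within the groups. Once each group mean was removed, the 36 pairs of members had a median Pearson r over the 9 livers of 0.08, beside 0 for all pairs of tested genes, and 20 pairs were above 0. *Ifit1* and *Usp18* were the closest pair (r = 0.84) and *Oas1a* and *Usp18* the most opposed (r = −0.61). All these points share the scaling of their liver.

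The genes whose log2 values over the 9 livers were most like the mean z-score of the members were *Herc6* (Pearson r = 0.96), *Naf1* (0.94), *Aim1l* (0.94), *Cpeb2* (0.93), *Ppp1r13b* (0.92) and *Sntg2* (0.92), out of 11959 genes ranked. *Herc6*, the ligase that attaches ISG15 to proteins in mice, is itself interferon-stimulated. Of the 50 most alike genes, 4 were on an interferon list, *Herc6*, *Oas1g*, *Rtp4* and *Gbp2*. The list of other type I interferon-stimulated genes held 3 of the 50 and 65 of the 11959 genes ranked. Because the mean z-score separated the groups, this ranking also favors any gene that differed between them. *Aim1l* ranged from 6.77 to 20.9 rescaled TPM in the apoC-III group and from 1.38 to 3.25 in the control group.

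**Figure D4:**
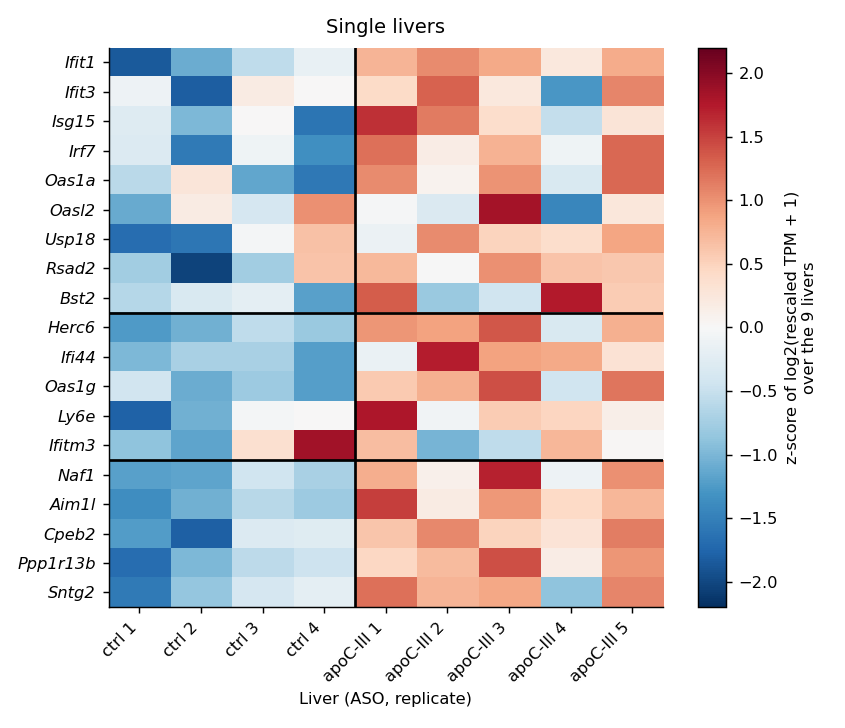
Level of each gene in each liver as a z-score of log2(rescaled TPM + 1) over the 9 livers (color), for the 9 members (top), 5 other type I interferon-stimulated genes (middle) and 5 further genes most like the members (bottom), with the control group on the left and the apoC-III group on the right. The member rows are mostly red on the right, with *Oasl2* and *Bst2* mixed and apoC-III ASO replicate 4 the palest apoC-III column.

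The rest of the type I response was read from a list of 73 other interferon-stimulated genes. Of the 65 that were tested, 50 (76.9%) were higher and 15 lower in the apoC-III group, 14 (21.5%) were higher with an unadjusted p under 0.05 and 0 lower, and the median log2 fold change was 0.28. None was called by limma. *Herc6* was at 30.4, 29.1, 36.6, 16.1 and 27.7 rescaled TPM in the apoC-III group and at 10.4, 11.3, 14.5 and 12.7 in the control group, a log2 fold change of 1.10 (SE 0.25, limma adjusted p = 0.650). *Ifi44*, an interferon-induced antiviral protein, was at 3.15, 11.4, 6.58, 6.37 and 4.46 against 1.55, 1.97, 1.997 and 1.24, a log2 fold change of 1.37 (SE 0.31, limma adjusted p = 0.650). In both genes every apoC-III liver was above every control liver, as in *Xaf1*, an interferon-induced antagonist of the apoptosis inhibitor XIAP. *Oas1g* followed with a log2 fold change of 1.01 (SE 0.28, limma adjusted p = 0.762).

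Not all of the list stood higher. *Ly6e*, a surface protein and the most abundant gene of the list, had means of 577 ± 145 (SD, n = 5) and 385 ± 99.5 (SD, n = 4) rescaled TPM, whereas *Ifitm3*, which blocks virus entry, had 177 ± 21.3 (SD, n = 5) and 181 ± 41.2 (SD, n = 4). *Ifitm1*, named here after its values were seen, had the lowest log2 fold change of the list, −0.54. The count of 14 (21.5%, beside 3% of all genes) moved with single livers. It was 6 of 66 without apoC-III ASO replicate 3, 9 of 66 without apoC-III ASO replicate 1, 9 of 65 without control ASO replicate 1 and 18 of 66 without apoC-III ASO replicate 4, where 2.05%, 2.76%, 2.79% and 3.70% of all genes had such a p. On TPM as deposited with a pseudocount of 0.1 it was 3 of 64 (1.12% of all genes), with median-of-ratios factors on that scale 15 of 64 (3% of all genes), and after protein-coding rescaling without factors 20 of 65 (10.7% of all genes). The count of genes without overlap was 3 of 65 (*Herc6*, *Ifi44*, *Xaf1*), or 4.62%, beside 0.919% of all genes. It was 10 of 66 without apoC-III ASO replicate 4 (2.04% of all genes), 6 of 66 without apoC-III ASO replicate 2 (1.61%), 5 of 65 without control ASO replicate 1 (1.81%) and 5 of 66 without control ASO replicate 2 (1.90%). Leaving out any other single liver gave 3 or 4, beside 1.24% to 2.02% of all genes.

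**Figure D5:**
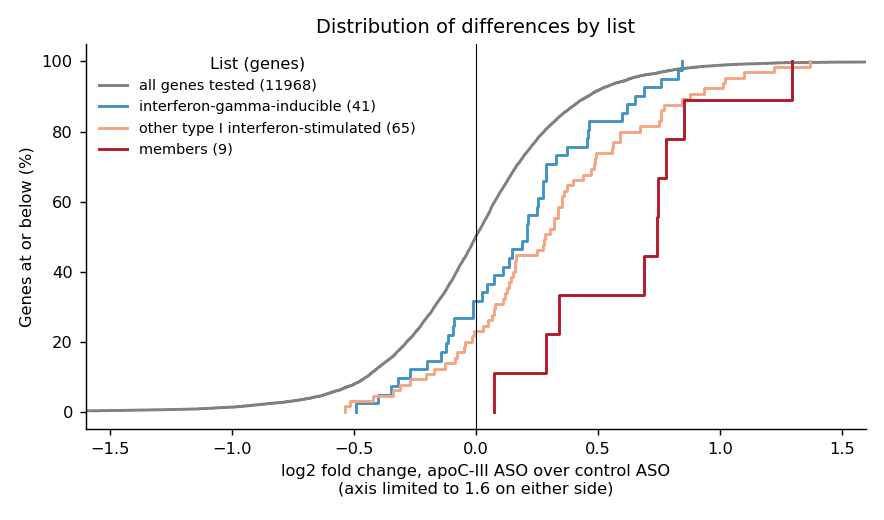
Cumulative share of genes (%) at or below each log2 fold change (apoC-III ASO over control ASO) for all 11968 genes tested (gray), 41 interferon-gamma-inducible genes (blue), 65 other type I interferon-stimulated genes (orange) and the 9 members (red), with the axis limited to 1.6 on either side. The member curve lies farthest to the right, with a median of 0.74, then the other type I genes at 0.28, the interferon-gamma genes at 0.21 and all genes near 0.

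Genes known for induction by interferon-gamma include those of antigen presentation. Of 45 listed, 41 were tested, of which 28 (68.3%, beside 49.9% of all genes) were higher and 13 lower. The median log2 fold change was 0.21. With an unadjusted p under 0.05, 3 (7.32%, beside 3% of all genes) were higher and 0 lower. The 3 were *Tap2* and *Tap1*, which together carry peptides into the endoplasmic reticulum, and the guanylate-binding protein *Gbp2*. *Tap2* was at 32.6, 19.3, 34.4, 24.6 and 30.8 rescaled TPM in the apoC-III group and at 19.4, 19.3, 17.7 and 7.51 in the control group, a log2 fold change of 0.84 (SE 0.30, limma adjusted p = 0.860). Control ASO replicate 4 was the lowest liver for *Tap2*. The class I chain *H2-K1* and its partner *B2m*, the most abundant genes of the list, had log2 fold changes of −0.27 (SE 0.31) and −0.01 (SE 0.29).

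The steps before interferon begin with the sensors. Of 43 genes for nucleic acid sensors and their adaptors, 36 were tested. Of these, 25 (69.4%, beside 49.9% of all genes) were higher and 11 lower, and none was called. With an unadjusted p under 0.05, 3 (8.33%, beside 3% of all genes) were higher. The 3 were *Eif2ak2*, the kinase PKR that double-stranded RNA activates, *Zbp1*, which binds Z-form nucleic acids, and *Dhx58*, a helicase of the RIG-I family. *Eif2ak2* was at 18.5, 36.7, 23.6, 15.97 and 27.6 rescaled TPM in the apoC-III group and at 10.5, 16.3, 13.4 and 11.04 in the control group, which overlapped through replicate 4 of the apoC-III group. All 3 are also on the list of interferon-stimulated genes. With genes shared by the lists left out, 29 sensors and adaptors remained, of which 19 were higher and 0 had an unadjusted p under 0.05 (0 called by limma). The abundant adaptors *Ikbkg* and *Irf3* had log2 fold changes of 0.30 (SE 0.25) and 0.03 (SE 0.21). *Tlr9*, the receptor for unmethylated CpG DNA, had a mean of 0.0853 rescaled TPM in the apoC-III group and 0.0856 in the control group, too low to be tested.

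Of 33 genes for interferons, their receptors and the signaling that follows, 19 were tested. Of these, 15 (78.95%, beside 49.9% of all genes) were higher and 4 lower, and none was called. With an unadjusted p under 0.05, 3 (15.8%, beside 3% of all genes) were higher, *Herc6*, *Stat2* and *Socs3*. *Herc6* and *Stat2* are also on the list of interferon-stimulated genes. Without the genes shared by the lists, 9 of 13 (69.2%) were higher and 1 (7.69%) had such a p. Of 12 interferon genes listed, 11 were at 0 in all 9 livers, *Ifnb1* and *Ifng* among them, and *Ifnz* was above 0 in 1 control liver (0.161 rescaled TPM). Receptor subunits did not differ beyond the spread, with log2 fold changes of 0.03 (SE 0.28) for *Ifnar1* and −0.11 (SE 0.28) for *Ifnar2*. *Stat2*, a subunit of the complex that binds the response element, was at 132 ± 21.1 (SD, n = 5) against 93.9 ± 18.6 (SD, n = 4), and the log2 fold change was 0.49 (SE 0.22, limma adjusted p = 0.876). Its partner *Irf9* had a log2 fold change of 0.49 (SE 0.30). *Socs3*, an inhibitor of JAK signaling that is best known as a target of STAT3, was scattered, at 34.2, 63.5, 21.02, 2.96 and 29.3 in the apoC-III group and at 12.8, 4.64, 13.9 and 0.362 in the control group.

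The summed levels of markers of other liver cell types overlapped between the groups. The summed level of 8 Kupffer cell and macrophage markers was 74.6 to 106 rescaled TPM in the apoC-III group and 68.8 to 117 in the control group, with 4 of 7 tested markers higher and 0 with an unadjusted p under 0.05. Markers of plasmacytoid dendritic cells summed to 23.6 to 63.1 and 35.9 to 46.1, with 1 of 3 tested markers higher. Lymphocyte markers summed to 1.95 to 9.03 and 2.21 to 18.4. Neutrophil markers summed to 0 to 1.94 and 0 to 4.47, with *S100a8* listed at 0 in every liver. Each of these lists had 1 tested marker, lower in the apoC-III group (log2 fold changes −1.51 and −0.89). Neither had an unadjusted p under 0.05. Sinusoidal endothelial markers ran from 78.5 to 118 and from 66.5 to 115, with 3 of 5 higher, and cholangiocyte markers from 2.80 to 7.04 and from 2.86 to 4.73. Stellate cell markers summed to 106 to 139 in the apoC-III group and 132 to 231 in the control group, with 4 of 4 lower. Of these, 2 had an unadjusted p under 0.05 and 1 (*Lrat*) had groups that did not overlap. Over all genes tested, 2.57% were lower with such a p, and 109 of 11968 were lower without overlap. Of the 6 hepatocyte markers 5 were lower, 0 with an unadjusted p under 0.05, with a median log2 fold change of −0.37. The part of these cell types in the differences of the members was not tested.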

How the data were processed

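RNA depleted of ribosomal RNA was sequenced from 9 mouse livers, 5 on apoC-III ASO and 4 on control ASO, grouped by the ASO target in the labels. Values were deposited as TPM for each gene, and the submitters' processing notes tie them to kallisto 0.43.1 and GRCm38. The study's methods describe alignment with STAR, counting with featureCounts and a test on those read counts, and these were not analysed here. TPM keeps no depth, so no count test, counting interval or limit of detection could be given. No column of values was left without a liver. Nothing says how replicates were spread over batches, and replicate numbers are only names.

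Genes were matched to GENCODE M21, which held 51719 of the 51912 identifiers (99.63%), and the 21857 nuclear protein-coding genes among them were scaled to sum to 1000000 in every liver, then divided by median-of-ratios factors. limma 3.58.1 in R 4.3.3 (lmFit, eBayes with trend, two-sided) was run on log2(rescaled TPM + 1) without covariates, with Benjamini-Hochberg adjustment over 11968 genes. The pseudocount of 1 understates changes of low genes. Single values were compared with exact two-sided permutation tests (126 arrangements). The fit was tested on simulated data with known folds. Shared 31-base words were counted between GENCODE M21 transcripts, and promoter windows came from RefSeq. Python 3.11.15 with scipy 1.17.1, pandas 2.3.3, matplotlib 3.10.9 and numpy 2.4.6 ran the rest.

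The members, the gene lists, the scaling and the tests were chosen with earlier results of these data known, and the lists were written from general knowledge. Genes named are the 9 members, the 3 genes with the smallest p and the 2 with the highest level of each interferon list, the 6 genes most like the members, near copies of members and *Apoc3*. Others (*Xaf1*, *Ifitm1*, *Tlr9*, *Irf9*, *Ifnar1*, *Rtp4*, *Anpep*, the interferon genes and markers) were named after their values were seen. Alternatives used TPM as deposited, no factors, quantile normalization, other pseudocounts and filters, array weights, robust eBayes, no trend, other thresholds, a replicate block and each liver left out. Alternatives on TPM as deposited with a pseudocount of 0.1 and a minimum mean of 0.1 were added after seeing the data.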

Additional observations from a re-analysis of the deposited data

Results flagged for a closer look

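Among 72 groups of livers (36 named genes, 2 ASO groups each), 4 held a liver whose gap to its nearest neighbor exceeded Dixon's 95% limit, about the 1 in 20 that chance flags. *Ly6e* was at 824.9 rescaled TPM in apoC-III ASO replicate 1, where the other livers of the group were at 459.9 to 562.3. *Tap2* was at 7.511 in control ASO replicate 4 against 17.71 to 19.39 in the rest of its group. *H2-K1* was at 3666 in the same control liver, against 1636 to 1891 in the others. *Sntg2* was at 22.6 in apoC-III ASO replicate 4, against 33.9 to 38.08 in the others. None of the 9 members met this limit in either group.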

How the results depend on the processing

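None of the 9 members was called under any of 26 alternatives, nor was any gene of the other 4 lists under 24, and the lowest adjusted p of any member over its alternatives was 0.380 (*Rsad2*, limma). The log2 fold changes of *Ifit1*, *Ifit3*, *Isg15*, *Irf7*, *Oas1a*, *Usp18*, *Rsad2* and *Bst2* were above 0 in every alternative that tested them. That of *Oasl2* was −0.166 without apoC-III ASO replicate 3 and −0.112 without control ASO replicate 1, and ran up to 0.275 with another liver left out and 0.51 over all alternatives. The median of the members, 0.74, was 0.449 on TPM as deposited and 0.350 with median-of-ratios factors on that scale, where 2 members could be tested, and 1.07 after protein-coding rescaling without factors, which moved the median of all genes to 0.41. Leaving out 1 liver gave 0.612 to 0.835. The number of genes called over the whole table, 2, was 11 on TPM as deposited and 1 without factors, without a filter, with a minimum mean of 0.1 or without a trend, and 1 to 3 with 1 liver left out. The causes of these shifts were not tested. Same-numbered livers of the groups correlated at 0.0673, 0.119, 0.0280 and 0.190 in their deviations from the group means, so the numbers were not taken as pairing. With a replicate block, the median of the members was 0.680, 4 members had an unadjusted p under 0.05 instead of 6, and 3 genes were called in all. Of all genes, 3.84% were higher with such a p in the block fit, against 3% in the main fit. Depth is unknown in TPM and could not be weighed.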
